A study of Mus musculus with 4 samples.

Results

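Rnase4, the angiogenin genes Ang, Ang2 and Ang4, the related genes Rnase10 and Rnase6, and the gene of the ribonuclease inhibitor, Rnh1, were followed in the injured cortex of mice. These 7 genes, each with 1 probe, stand among 20828 genes that the array's RefSeq accessions name. They were chosen from measured values of these same samples, since Rnase4 was known to lie far below wild type in the knockout-labelled samples. The ratios below are therefore a description and carry no test. Total RNA was compared on 4 2-colour Agilent arrays of 1 slide, each with 1 wild-type sample in Cy5 and the Ndrg2KO sample of the same replicate number in Cy3. All samples came from C57BL/6 mice aged 8 weeks, in the ipsilateral cortex 24 h after the middle cerebral artery of the left side had been permanently closed by electrocoagulation (pMCAO), so both groups shared the ischaemia and no uninjured cortex was included. The deleted part of Ndrg2 and the way the allele was made are not given in the sources used here. Nothing in the labels ties each sample to its own animal, and p-values therefore reflect the spread of these samples, which may be technical. No array had the dyes reversed, so a dye effect of a probe and a genotype effect cannot be told apart.

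The RNase A family consists of small secreted enzymes that cleave RNA, and several of its genes lie side by side. Angiogenin enters cells, promotes ribosomal RNA synthesis and vessel growth, and under stress cleaves tRNAs at the anticodon loop, which represses translation. Mouse Rnase4 and Ang share promoters and 5′ noncoding exons that are spliced to separate coding exons. The ribonuclease inhibitor, a cytosolic leucine-rich repeat protein, binds these enzymes very tightly and blocks them.

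Promoter windows from RefSeq (GRCm38.p6) were found for 6 of the 7 genes, and 3 windows are shown because they belong to the genes with the opposite and the largest ratios. Each gives the 250 bases before a transcript start, 5′ to 3′ on the gene's strand. The first start of Rnase4 and the start of Ang were the same base, so 1 window, chr14:51090827-51091076 on the plus strand, serves both. The second start of Rnase4 lay 4923 bases downstream, with the window chr14:51095750-51095999 on the plus strand. Ang4 lies on the minus strand, with the window chr14:51773591-51773840. Capitals mark a CCAAT motif in the shared window, and in the other windows the stretch in which Rnase4 and Ang4 are alike.
Rnase4 and Ang, shared start: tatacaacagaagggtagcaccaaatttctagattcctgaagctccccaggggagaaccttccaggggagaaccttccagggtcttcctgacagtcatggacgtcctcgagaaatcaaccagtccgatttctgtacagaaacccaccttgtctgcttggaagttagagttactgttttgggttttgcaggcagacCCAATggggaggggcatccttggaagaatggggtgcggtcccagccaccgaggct
Rnase4, second start: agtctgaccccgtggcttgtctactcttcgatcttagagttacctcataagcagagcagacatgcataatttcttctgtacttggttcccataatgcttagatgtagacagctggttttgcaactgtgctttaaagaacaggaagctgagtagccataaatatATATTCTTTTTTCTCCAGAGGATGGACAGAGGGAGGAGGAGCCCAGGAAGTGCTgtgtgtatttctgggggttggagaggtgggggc
Ang4: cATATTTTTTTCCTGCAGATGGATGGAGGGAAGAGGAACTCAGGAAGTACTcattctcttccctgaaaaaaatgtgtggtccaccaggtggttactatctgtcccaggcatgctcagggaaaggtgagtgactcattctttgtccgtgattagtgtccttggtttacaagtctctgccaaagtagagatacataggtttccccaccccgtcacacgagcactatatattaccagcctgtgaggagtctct

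The second window of Rnase4 and the window of Ang4 matched in 43 of 55 aligned columns (78.2%), from base -87 to -34 in Rnase4 and from -249 to -200 in Ang4. In all, 5 motifs were searched on both strands, here and in 32851 promoter windows of this length. The TATA box, TATAAA, was in none of the 3 windows shown and occurs in 12.4% of all windows. The GC box, GGGCGG, was likewise in none of the 3 and occurs in 32.7% of all. The E-box searched, CACGTG, was in none of the 3 and occurs in 6.02%. The motif CCAAT began at base -55 from the shared start and occurs in 33.8% of windows. No motif overlapped another in these windows. The motif AGGAAGT, chosen after the sequences had been seen, lay in the aligned stretch of both Rnase4 and Ang4 and occurs in 7.69% of windows. It is not particular to this pair, since windows of Rnase10 and Rnase6, which are not shown, held it as well. These matches describe letters and not sites that a factor was shown to bind.

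In all, 43020 spots per array lay outside the controls. Between 73.6 and 74.9% of them were well above background in the Cy3 channel and 76.7 to 79.0% in the Cy5 channel, and none was saturated. Arrays 1 and 2 resembled each other most (r = 0.73 across probes), then arrays 3 and 4 (r = 0.63), and the other pairs had r of 0.41 to 0.47. The Ndrg2 probe, read as a check of the labels, was bright in both groups. Its normalized log2 intensity was 15.50 to 15.57 in the knockout-labelled and 15.67 to 15.78 in the wild-type samples. The probe was lower in each knockout-labelled sample, but only by 0.18 ± 0.05 on the log2 scale (SD, n = 4; 1.13-fold; limma adjusted p = 0.0244), and it lost its call without replicate 1, 2 or 3. It read -0.043 with the scanner's ratios, where it was not called, and -0.81 with median centring. Where that probe lies relative to the deleted part is not known here, so the genotype stands on the labels. After a filter that kept probes well above background in either channel on at least 3 arrays, 30257 of 39429 probes were tested with limma. At a Benjamini-Hochberg adjusted p under 0.05, 20.9% of them were called, 9.29% with a higher and 11.7% with a lower Cy3 (knockout-labelled) signal. These were 2811 and 3527 probes, whereas centring each array on its median gave 7881 and 15613.

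Rnase4 was low in the knockout-labelled cortex, the 3 angiogenin genes were slightly high, Rnase10 was slightly low and the Rnh1 levels overlapped. Of the 7 probes 6 passed the filter, and Rnase6 did not. Ang2 passed it through the knockout-labelled channel alone, where it is higher. No calls or counts of calls are given for these genes, because they were chosen on this contrast. For Rnase4, Ang, Ang2, Ang4 and Rnase10 the 4 knockout-labelled and the 4 wild-type levels did not overlap, as was so for 19.5% of all tested probes, and nothing is read from that. In bulk tissue, fewer cells of a type and less RNA per cell cannot be told apart. Levels below are log2 intensities after background correction, within-array normalization and quantile normalization of the average intensities between arrays. They cannot be set against those of another probe.

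Rnase4 encodes a secreted ribonuclease that prefers to cut after uridine. Its level was 9.66, 9.69, 9.89 and 9.82 in the knockout-labelled samples 1 to 4. In the wild-type samples 1 to 4 it was 11.57, 11.59, 11.66 and 11.72. All 4 knockout-labelled values lay far below all 4 wild-type values. Ratios are given as log2 of knockout-labelled over wild-type signal. For Rnase4 they were -1.91, -1.89, -1.76 and -1.89, with a mean of -1.87 ± 0.07 (SD, n = 4), a level 3.64-fold lower. No other of the 30257 probes had a lower mean ratio, and 27.8% of probes had a smaller SD. The spot stood 11.6 to 18 times over its local background in Cy3 and 53 to 64.8 times in Cy5. The uncorrected median spot signals were 419, 531, 567 and 522 in Cy3 and 5249, 5712, 4950 and 5381 in Cy5. Those raw values include the overall difference between the dyes, which normalization removes.

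**Figure D1:**
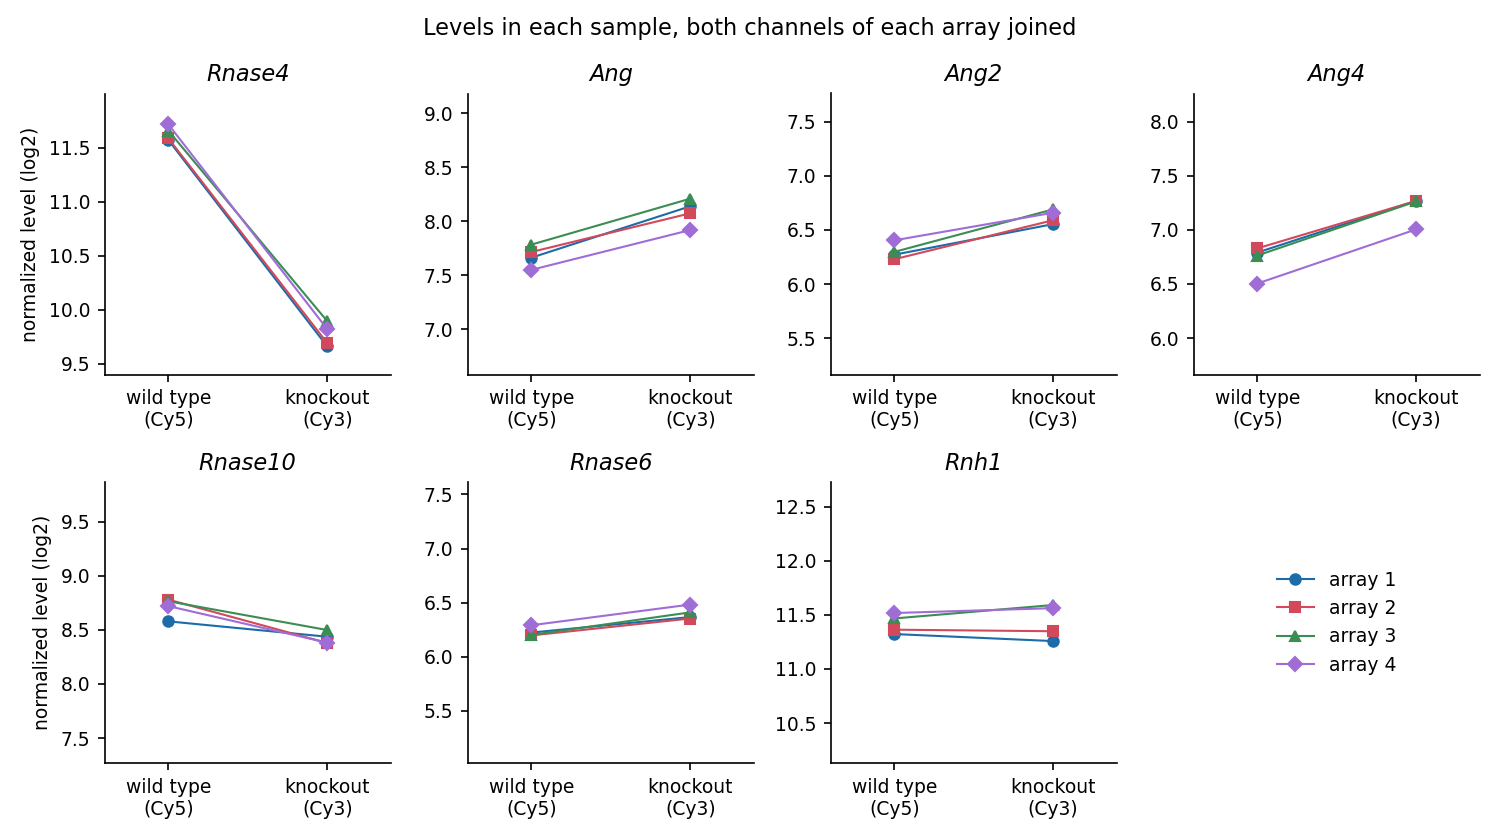
Log2 levels (y axis, log2 intensity) of each of the 7 genes in the 4 knockout-labelled (Cy3) and the 4 wild-type (Cy5) samples, 1 point per sample with a line joining the samples of an array. Rnase4 lies between 9.66 and 9.89 in the knockout-labelled and between 11.57 and 11.72 in the wild-type samples, while the Rnh1 points of the groups overlap.

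Ang encodes angiogenin itself. Its level was 8.14, 8.07, 8.21 and 7.92 in the knockout-labelled samples 1 to 4. The wild-type samples gave 7.66, 7.72, 7.78 and 7.55. Every knockout-labelled value exceeded every wild-type value, by little. The log2 ratios were 0.48, 0.36, 0.43 and 0.37, a mean of 0.41 ± 0.05 (SD, n = 4), which is 1.33-fold higher. The spot was 5.28 to 6.00 times over background in Cy3 and 3.18 to 4.06 times in Cy5. On every array the log2 ratio of Ang thus exceeded that of Rnase4, by 2.39, 2.25, 2.19 and 2.26, although the RefSeq start is shared. The mean difference of these ratios was 2.27 ± 0.08 (SD, n = 4). The probes' sequences were not used here, so whether a probe lies in an exon that both genes share is not known.

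Ang4 encodes an angiogenin best known from Paneth cells of the gut, where it acts against microbes. Its level was 7.27, 7.27, 7.26 and 7.0 in the knockout-labelled samples. The wild-type samples 1 to 4 gave 6.79, 6.83, 6.76 and 6.5. Both channels were lowest on array 4, and within each array the knockout-labelled value was the higher. The log2 ratios were 0.48, 0.44, 0.50 and 0.50, a mean of 0.48 ± 0.03 (SD, n = 4), which is 1.39-fold. Only 3.40% of tested probes had a smaller SD than Ang4. The Rnase6 probe, which did not pass the filter, stood at 3.70%. Its values average 10 spots per array and those of Ang4 rest on 1, so these ranks cannot be compared. Nothing is read from the rank of Ang4. The spot was 2.77 to 3.0 times over background in Cy3 and 1.54 to 2.07 times in Cy5, so it was dim. The ratios of Ang4 and Ang differed by 0.07 ± 0.05 on the log2 scale (SD, n = 4), from 0.00 on array 1 to 0.13 on array 4.

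Ang2, a further mouse angiogenin, is not angiopoietin 2, which shares the abbreviation. Its level was 6.55, 6.59, 6.69 and 6.66 in the knockout-labelled samples. The wild-type spot was not well above background on any array and read 6.27, 6.23, 6.30 and 6.40, below all knockout-labelled values. By the mean log2 levels over the 4 samples of each group, Ang2 was 1.25-fold higher in the knockout-labelled samples. That fold is no lower limit, since the ratio was smaller on some arrays and the wild-type signal was near background. The log2 ratios behind it were 0.28, 0.36, 0.39 and 0.26, with a mean of 0.32 ± 0.06 (SD, n = 4). The spot stood 1.68 to 2.07 times over background in Cy3 and 1.23 to 1.45 times in Cy5. Mouse angiogenins are close in sequence, and how far 1 probe also binds transcripts of another was not tested.

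The values of the 3 angiogenins depend on how dim signals are handled. With a background offset of 10 in place of 50, the log2 ratios were 0.52 for Ang, 0.61 for Ang2 and 0.74 for Ang4. The scanner software's own ratios were 0.56, 1.62 and 1.09 in the same order. With median centring in place of loess, Ang2 was at 0.95 and Ang4 at 0.82. Under that centring probes of like intensity moved as well, to a median log2 ratio of 0.56 around Ang2 and 0.34 around Ang4, against -0.01 around each with loess. The direction of all 3 stayed the same in each alternative run, and their sizes are uncertain.

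**Figure D2:**
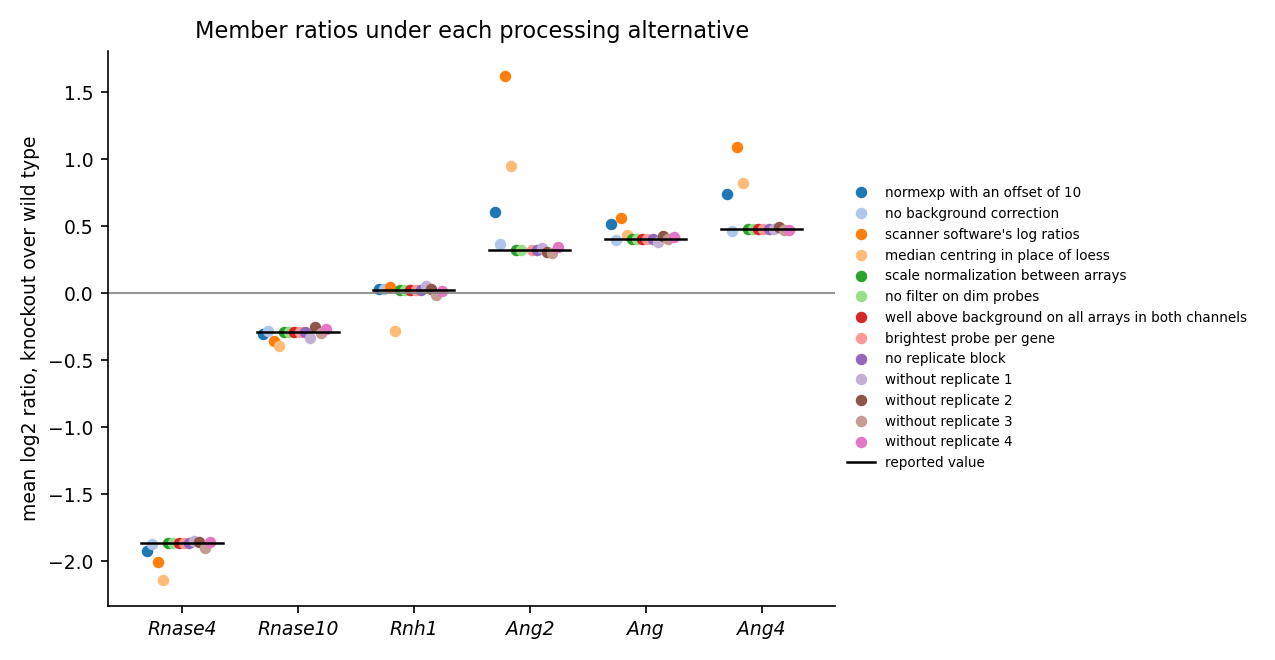
Mean log2 ratio (y axis, knockout-labelled over wild type) of 6 of the genes (x axis), 1 coloured point per alternative setting and a black line at the reported value. Rnase4 stays between -2.14 and -1.85, whereas Ang2 ranges from 0.30 to 1.62 and Ang4 from 0.46 to 1.09.

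Rnase10 encodes a protein of the family that lacks key catalytic residues and is known from the epididymis. Its level was 8.44, 8.38, 8.5 and 8.38 in the knockout-labelled samples. The wild-type samples gave 8.58, 8.78, 8.77 and 8.72, all above the knockout-labelled values. The log2 ratios were -0.14, -0.40, -0.27 and -0.34, with a mean of -0.29 ± 0.11 (SD, n = 4; 1.22-fold lower). Its spread was wider than that of 60.2% of tested probes. Without replicate 2 the ratio was -0.25. None of the 6 probes for the epididymal genes Lcn5, Adam7, Crisp1, Spag11b and Defb12 passed the filter, and Lcn5, Crisp1 and Defb12 were not well above background on any array.

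Rnase6 encodes a secreted antimicrobial ribonuclease of myeloid cells. Its probe lay on 10 spots per array. The spot averages were 6.37, 6.35, 6.41 and 6.48 in the knockout-labelled and 6.22, 6.20, 6.20 and 6.29 in the wild-type samples. These averages do not overlap, and nothing is read from that. On every array the single spots of the channels did overlap, with 6.26 to 6.51 in Cy3 and 6.12 to 6.34 in Cy5 on array 1. Over the 4 arrays, 9 of 40 Cy3 spots and 1 of 40 Cy5 spots were well above background, so no fold is given. The SD of the log2 ratio between spots of 1 array had a median of 0.10 for Rnase6, against 0.05 over 315 probes with 10 spots that were well above background on every array.

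Rnh1 lies on chromosome 7, apart from the others. Its level was 11.26, 11.35, 11.59 and 11.56 in the knockout-labelled samples. The wild-type samples gave 11.32, 11.36, 11.47 and 11.52, and the groups overlap. The log2 ratios were -0.07, -0.01, 0.12 and 0.05, with a mean of 0.02 ± 0.08 (SD, n = 4). An overlap does not show that the levels are equal. With median centring the ratio was -0.28, while probes of like intensity lay at a median of -0.31 under that setting and of -0.01 under loess.

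**Figure D3:**
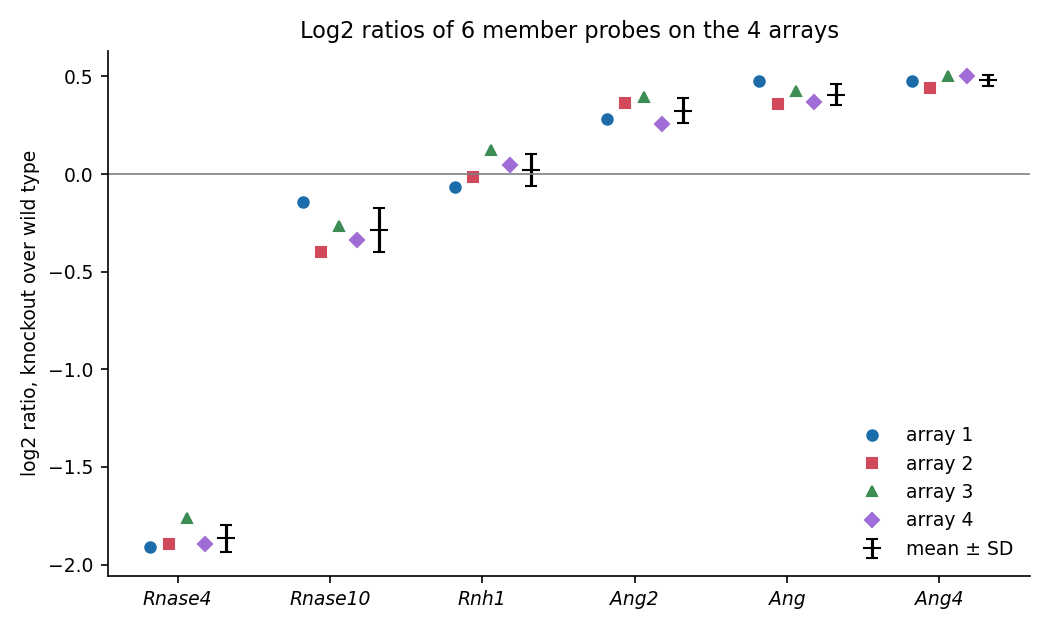
Log2 ratio (y axis, knockout-labelled over wild type) on each of the 4 arrays for the 6 genes that passed the filter, 1 point per array, with a bar for the mean ± SD. Rnase4 stands alone between -1.91 and -1.76, Ang and Ang4 lie between 0.36 and 0.50, and Rnh1 straddles 0.

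All members other than Rnh1 lie on chromosome 14, as does Ndrg2. By RefSeq starts on GRCm38.p6 the order is Rnase10, then Rnase4 with Ang, Rnase6, Ang2, Ang4 and Ndrg2. Relative to the start of Rnase4, Rnase10 begins at -83.3 kb, Rnase6 at 32.8 kb, Ang2 at 104 kb, Ang4 at 673 kb and Ndrg2 at 814 kb. The low members, Rnase10 and Rnase4, thus begin at -83.3 and 0 kb, and the high ones, Ang, Ang2 and Ang4, at 0, 104 and 673 kb. Rnase4, by its first start, and Ang begin at the same base. A relation of the ratios to position was not tested.

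Within 500 kb of the Rnase4 start, 31 probes belong to genes outside the set and 15 of them were tested. Of these 5 were called higher and 4 lower and 6 were not called, beside 9.29% higher and 11.7% lower (20.9% in all) over all tested probes. They had a median log2 ratio of -0.07, against -0.01 over all tested probes. Pnp2, a purine nucleoside phosphorylase, rose by 0.94 ± 0.09 (SD, n = 4; limma adjusted p = 0.000325), and its size is uncertain, with 1.33 at an offset of 10 and 1.96 by the scanner's ratios. Pnp, its close neighbour and relative, fell by 0.31 ± 0.25 (limma adjusted p = 0.0431) and lost its call in 5 of 13 alternatives. How far the Pnp2 and Pnp probes bind both transcripts was not tested. Both probes of Ttc5, a cofactor of the p53 response, rose, by 0.55 ± 0.14 (limma adjusted p = 0.00236) and 0.26 ± 0.08 (limma adjusted p = 0.0105), of which the second read 0.0085 with median centring and was not called. Pip4p1, a phosphoinositide phosphatase, rose by 0.30 ± 0.12 (limma adjusted p = 0.0113). Tep1, a telomerase-associated protein, fell by 0.29 ± 0.05 (limma adjusted p = 0.0064). Parp2, a DNA damage sensor, fell by 0.19 ± 0.13 (limma adjusted p = 0.0497) and lost its call in 10 of 13 alternatives. Ccnb1ip1, a ubiquitin ligase of meiosis and 1 of the 4 lower probes, passed the filter through the wild-type channel alone, which favours that direction, so its test is not given. Its log2 ratios ran from -0.65 to -0.22, with a mean of -0.38 ± 0.19 (SD, n = 4). None of the knockout-labelled samples had it well above background, so its size is uncertain, and the call was lost with no replicate block. The probes of Osgep, a tRNA-modifying enzyme, differed, with 0.22 ± 0.11 (limma adjusted p = 0.0259) for one and -0.08 ± 0.01 (limma adjusted p = 0.189) for the other. With median centring the ratios of Ccnb1ip1, of the called Osgep probe and of Pip4p1 changed sign. Apex1, a DNA repair endonuclease, read -0.07 ± 0.11, Olfr745, an olfactory receptor gene, -0.07 ± 0.11 and Gm5622 -0.02 ± 0.03, and none of the 3 was called.

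The other RNase A family genes of this stretch were either not called or dim. Rnase1, the pancreatic-type enzyme, read -0.05 ± 0.08 (SD, n = 4; limma adjusted p = 0.502). Rnase2a, an eosinophil-associated ribonuclease, read -0.13 ± 0.12 (limma adjusted p = 0.117). Rnase9, Rnase11, Rnase12 and Rnase2b were not well above background on any array in either channel. The remaining dim probes belonged to Olfr744, Olfr746, Olfr747, Olfr748, Olfr749, Olfr750, Eddm3b, Vmn2r89, 4930597G03Rik, Gm5622 and Pnp.

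**Figure D4:**
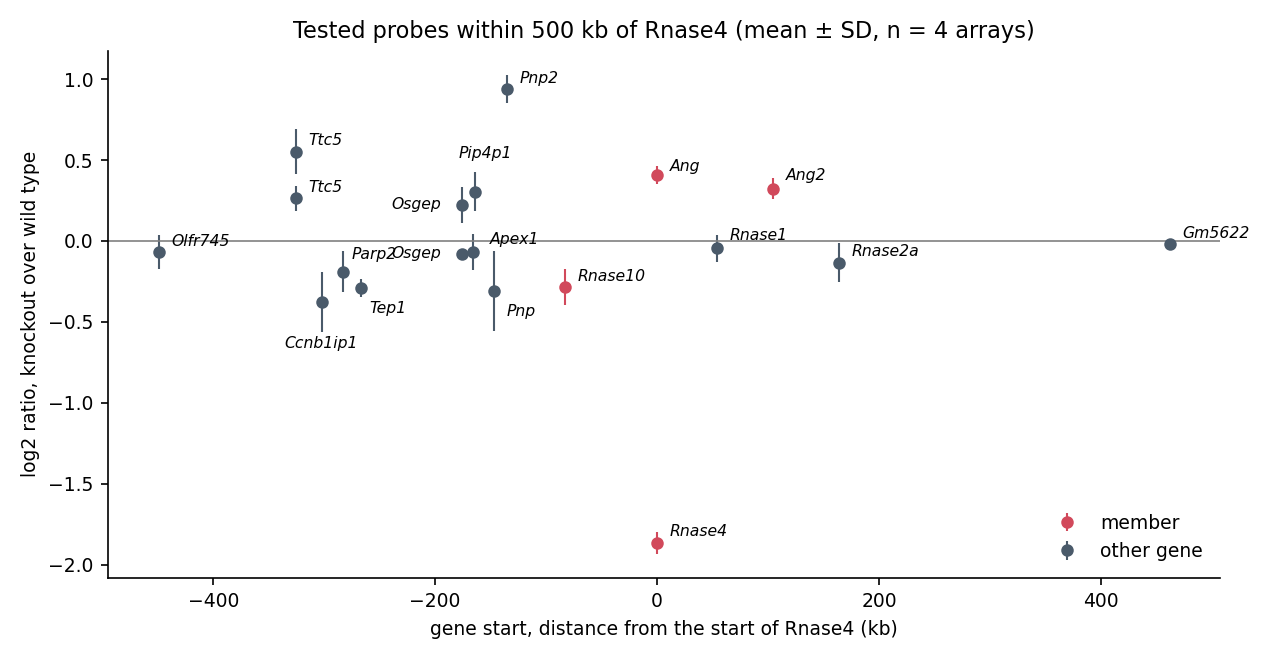
Mean log2 ratio (y axis, knockout-labelled over wild type, with SD over 4 arrays) of each tested probe of genes within 500 kb of the Rnase4 start, by distance of the RefSeq start from it in kb (x axis). Rnase4 at -1.87 and Ang at 0.41 share the position 0, and Pnp2 at 0.94 lies highest.

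Among 22459 probes that could be compared, the patterns nearest to Rnase4 and Ang over the 4 arrays were sought by the root mean square distance of the log2 ratios. Nearest to Rnase4 were Cdhr1, a photoreceptor cadherin, at a distance of 0.22, Tnfrsf10b, a receptor for the death ligand TRAIL, at 0.64, and Mmp3, a matrix metalloproteinase, at 0.80. Cdhr1 read -1.96, -1.95, -1.62 and -1.49 on arrays 1 to 4, and like Tnfrsf10b it lies on chromosome 14. Mmp3, on chromosome 9, ranged from -2.37 to -0.59, with a mean log2 ratio of -1.51 against -1.87 for Rnase4. Though among the nearest, it was thus not close to Rnase4 in pattern. Nearest to Ang were Kdelr1, a receptor that returns proteins to the endoplasmic reticulum, at 0.0377, Pin1rt1 at 0.0379 and Plppr3 at 0.0439, on chromosomes 7, 2 and 10.

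Beyond this stretch, the wider family and the partners of angiogenin were read from lists. Counts of calls in each list stand beside 9.29% higher and 11.7% lower over all tested probes. Of 15 other RNase A family genes 11 were on the array and 7 passed the filter. Only Ear2, an eosinophil-associated ribonuclease that macrophages also make, was called, and it fell by 0.30 ± 0.17 (SD, n = 4; limma adjusted p = 0.0234). The median log2 ratio of the 7 was -0.07. Ear2 lost its call in 5 of the alternatives, and with median centring 5 of the 7 were called higher and 0 lower. In the reported fit Ear1, Ear6, Ear10 and Rnase13 lay between -0.12 and -0.05 without a call. How far a probe binds transcripts of several of the near-identical Ear genes was not tested.

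Of 7 probes for angiogenin receptors and binding partners, 2 fell and 5 were not called, with a median of -0.06. Over all tested probes 9.29% were called higher and 11.7% lower. Plxnb2, a plexin that serves as a receptor of angiogenin, fell by 0.30 ± 0.16 (SD, n = 4; limma adjusted p = 0.0191). One probe of Egfr, the epidermal growth factor receptor, fell by 0.31 ± 0.04 (limma adjusted p = 0.00499), while the other probes read -0.13 (limma adjusted p = 0.0507) and -0.04 (limma adjusted p = 0.693). Sdc4, a heparan sulphate proteoglycan, read 0.16 ± 0.14, Fst, the activin-binding follistatin, 0.33 ± 0.40, and Actn2, an actin crosslinker, -0.06 ± 0.16, with no call.

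Of 32 probes for tRNA cleavage, tRNA methylation and stress granules, 6 rose, 5 fell and 21 were not called, with a median of 0.02. The shares over all tested probes were 9.29% higher and 11.7% lower. Tardbp (TDP-43), an RNA-binding protein of stress granules, rose by 0.36 ± 0.03 at 1 of 3 probes (limma adjusted p = 0.00272), and the others read 0.11 and -0.04. Eif4g1, the scaffold of cap-dependent initiation that tRNA fragments displace, rose by 0.35 ± 0.04 (limma adjusted p = 0.00305). G3bp2, a stress granule nucleator, rose by 0.32 ± 0.06 at one probe (limma adjusted p = 0.00494) and read -0.09 at another. Eif4e, the cap-binding protein, fell by 0.31 ± 0.06 at one probe (limma adjusted p = 0.00589) and read 0.02 at another. With median centring Eif4g1 and G3bp2 changed sign, and the list had 1 probe called higher and 23 lower.

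Of 23 probes for ribosomal DNA transcription and the nucleolus, the process that angiogenin promotes in the nucleus, 3 rose, 1 fell and 19 were not called, with a median of 0.06. Beside these counts stand 9.29% higher and 11.7% lower over all tested probes. The probe that fell was 1 of Ubtf, the upstream binding factor of RNA polymerase I, at -0.47 ± 0.08 (SD, n = 4; limma adjusted p = 0.00206), and its other probe read 0.16. Probes of Nop56, Ncl and Fbl, all nucleolar proteins, rose by 0.26 ± 0.06 (limma adjusted p = 0.00888), 0.35 ± 0.15 (limma adjusted p = 0.0104) and 0.22 ± 0.03 (limma adjusted p = 0.0114). Another probe of Nop56 read 0.04 (limma adjusted p = 0.523) and another of Ncl 0.05 (limma adjusted p = 0.49), neither of them called. The 3 probes that rose changed sign with median centring, under which the list had 1 probe called higher and 15 lower. Of 38 probes for ribonucleases outside the family 5 rose, 2 fell and 31 were not called, with a median of 0.02, beside the same shares over all tested probes. Dis3l2, an exonuclease of uridylated RNA, rose at both probes, by 0.37 ± 0.10 (limma adjusted p = 0.00521) and 0.20 ± 0.02 (limma adjusted p = 0.0148). Pop1, a subunit of RNase P, rose by 0.36 ± 0.17 (limma adjusted p = 0.0119). With median centring the Dis3l2 probes read 0.024 and 0.027 and Pop1 0.12, all 3 calls were lost and the list had 1 probe called higher and 26 lower. The second Dis3l2 probe was also not called with no replicate block. Lactb2, a mitochondrial endoribonuclease, fell by 0.25 ± 0.10 (limma adjusted p = 0.0155). The Pop1 and Lactb2 probes named were not the brightest of their genes, and the other probes are not given here.

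**Figure D5:**
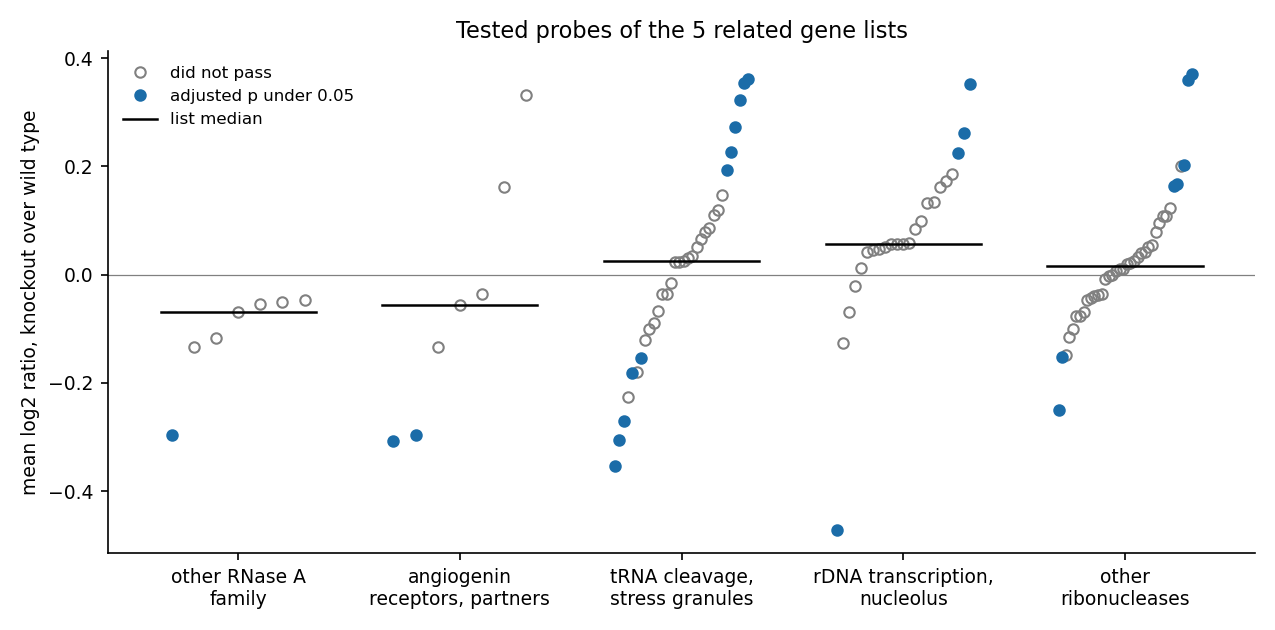
Mean log2 ratio over 4 arrays (y axis, knockout-labelled over wild type) of every tested probe in the 5 related gene lists, 1 point per probe, filled where the adjusted p was under 0.05, with a line at each list's median. The medians lie between -0.07 and 0.06, and each list holds more open than filled points.

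Markers of cell types that could hold these ribonucleases were read beside the members. The counts below stand beside 9.29% of all tested probes called higher and 11.7% called lower. All 11 astrocyte probes passed the filter, 6 fell and 5 were not called, with a median of -0.30. Their summed signal was 147662 to 169078 in the knockout-labelled and 196792 to 211270 in the wild-type samples. Of 8 monocyte and macrophage probes 2 fell, with sums of 22863 to 23705 against 30914 to 33350. Of 9 microglial probes 1 fell, with a median of -0.07 and sums of 54330 to 58677 against 60812 to 62845. Of 6 neutrophil probes 2 fell, with sums of 44973 to 53722 against 56985 to 65855. None of 6 endothelial probes was called, of 12 neuronal probes 1 rose and 1 fell, and of 9 oligodendrocyte probes 1 rose. The sums of these lists overlapped. They were 12920 to 18488 against 13818 to 15086 for endothelial cells and 238791 to 267754 against 249008 to 258945 for neurons. For oligodendrocytes they were 132163 to 191879 against 152041 to 166096. A sum is weighted towards its brightest probes, so nothing is read from the sums alone. The medians of these 7 lists ran from -0.30 to 0.06, against the Rnase4 ratio of -1.87, and their part in that ratio was not tested. Of 8 hepatocyte probes, those of Alb, Apoa1 and Fgb were not well above background on any array, while 5 probes, of Cyp2e1, Serpina1a and Ttr, passed the filter and 0 were called. Of 6 eosinophil probes 3 passed, of Il5ra, Siglecf and Epx, and 0 were called, while Prg2 was not well above background on any array. Of 4 Paneth cell probes only that of Lyz1 passed, at -0.90, -1.01, -0.43 and 0.32 on arrays 1 to 4 without a call, and both Itln1 probes were not well above background on any array. The summed signal of the Paneth list was 1292 to 3389 in the knockout-labelled and 2217 to 3082 in the wild-type samples.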

How the data were processed

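The deposited signals of spots and of their local background are linear intensities from Agilent Feature Extraction, version 11.0.1.1 per the file headers and 10.7.3.1 per the submitters' processing notes. The deposited flags mark spots well above background, saturated or outlying, per the file headers. The deposited log10 ratios are Cy5 over Cy3 of the software's processed, background-subtracted and dye-normalized signals, per the file headers. For some single-spot probes they were not the plain ratio of those signals. The largest log10 differences from it were 0.0983, 0.195, 0.218 and 0.118 on arrays 1 to 4. The deposited log10 ratios were used only as an alternative. The deposited value table holds log2 values that matched log2 of processed Cy5 over Cy3 within 0.001 for 39030 single-spot probes, so it runs wild type over knockout, opposite to the direction here; its column medians were -0.05, -0.06, -0.04 and -0.03. The labels' labelling protocol gives 200 ng of RNA per sample and speaks of plant shoots, which cannot describe this tissue.

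Because mean signals were planned and the files hold medians, median signals were taken. In R 4.3.3 with limma 3.58.1 and statmod 1.5.0, normexp with an offset of 50 corrected the background, and loess normalized each array, weighting control spots 0. For the levels, but not the ratios, the average intensity of both channels was then quantile-normalized between the arrays. Controls and 139 to 186 outlier spots per array were dropped, and repeated spots of a probe were averaged. Accessions, without versions, were named through RefSeq genes of GRCm38.p6, which gave 27421 probes (69.5%) a symbol. Per the file headers the design's annotation is on mm9, so only promoter windows of the table carry coordinates. Every probe was kept separate. With lmFit and eBayes each probe's 4 ratios were tested for a mean of 0, so the array paired the samples, and p-values were adjusted by Benjamini-Hochberg over all 30257 probes. The unadjusted p was under 0.05 for 11161. Promoters were searched and aligned with Biopython 1.88 (Python 3.11.15).

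The members, lists and tests were chosen with earlier results of these data known. The names given are all members, Ndrg2, genes starting within 500 kb of Rnase4, up to 4 called probes with the smallest p per related list, and the 3 probes nearest to Rnase4 and to Ang; uncalled list genes, marker genes and other probes of a named gene were added after their values were seen, as was the window of like intensity. On simulated data of 30257 probes, 10 of 50 probes changed 1.2-fold were recovered, 41 of 50 at 1.5-fold, 45 of 50 at 2-fold and 50 of 50 at 4-fold, with 6 false calls. The alternatives were other background corrections, the scanner's ratios, median centring, scaling between arrays, other filters, the brightest probe per gene, no pairing and leaving out each replicate.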

Additional observations from a re-analysis of the deposited data

Results flagged for a closer look

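Of 18 groups of 4 values (ratios and levels of the members) screened with Dixon's criterion, 2 held a value that stood apart, and chance gives about 1 in 20. The log2 ratio of Rnase4 was -1.76 on array 3, against -1.91 to -1.89 on the other arrays; the gap was 0.889 of the range, above the criterion's limit for 4 samples. The knockout-labelled level of Ang4 was 7.0 on array 4, against 7.26 to 7.27 on the others, with a gap of 0.981 of the range. The wild-type level of Ang4 was also lowest on that array, at 6.5, and the ratio of Ang4 there was 0.50.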

How the results depend on the processing

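The arrays number 4, which limits the precision, and dim probes have uncertain sizes. Over 77 results of the 6 tested members under the alternatives, 66 moved by less than the spread between replicates and 11 moved further; among these Rnh1, near 0, changed sign. With an offset of 10, Ang was at 0.52, Ang2 at 0.61 and Ang4 at 0.74. With the scanner's ratios, Rnase4 was at -2.0, Ang at 0.56, Ang2 at 1.62 and Ang4 at 1.09. With median centring, Rnase4 was at -2.14, Ang2 at 0.95, Ang4 at 0.82 and Rnh1 at -0.28; the median of all probes was then -0.16. The strictest filter removed Ang2.

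Over all probes, 2811 were called higher and 3527 lower. The scanner's ratios gave 2029 lower, and median centring 7881 higher and 15613 lower. Without pairing by array (no replicate block) the counts were 1645 and 1748. Leaving out each replicate gave 1064 to 1651 higher and 1356 to 2164 lower. Called probes of other RNase A genes numbered 5 with median centring, 0 with no replicate block and 0 to 1 with a replicate left out. Median centring turned the direction of most lists: from 6 higher and 5 lower to 1 and 23 for tRNA and stress granules, from 3 and 1 to 1 and 15 for the nucleolus, from 5 and 2 to 1 and 26 for other ribonucleases, and from 0 and 1 to 5 and 0 for other RNase A genes. Called probes of angiogenin receptors numbered 1 to 3 with a replicate left out. The tRNA and stress granule list had 24 with median centring, 7 with the brightest probe per gene and 6 to 9 with a replicate left out. The nucleolar list had 16 with median centring. The other ribonucleases had 4 with the scanner's ratios, 27 with median centring, 3 with the brightest probe, 2 with no replicate block and 2 to 4 with a replicate left out.

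Median centring also reversed Ccnb1ip1 (0.21), Osgep (-0.055), Pip4p1 (-0.0044), Eif4g1 (-0.11), G3bp2 (-0.040), Nop56 (-0.059), Ncl (-0.11) and Fbl (-0.11). Of 316 results of 25 named probes, 266 kept direction and call, 42 lost the call and 8 reversed. Parp2 and the called Osgep probe lost the call whichever replicate was left out, Ear2 and Pnp without replicate 1, 2 or 4, Plxnb2 and Lactb2 without 1 or 2, and the second Dis3l2 probe without 2 or 3. The cause of these changes was not tested.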
